A study of Saccharomyces cerevisiae with 1245 samples.

Results

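Convergent regions are the intergenic stretches between 2 neighbouring protein-coding genes of budding yeast whose ends face each other, so that the left gene is read towards the right and the right gene towards the left. They were taken from the R64 annotation as gaps of 50 to 1500 bp between coding sequences with no tRNA gene within 250 bp. The rule gave 1414 convergent regions among 5308 intergenic regions in all, the others being 2559 tandem regions, whose flanking genes point the same way, and 1335 divergent regions, whose flanking genes point apart. Convergent regions made up 403490 bp, which is 3.35% of the genome, and had a median length of 226 bp, against 381 bp for tandem and 467 bp for divergent regions.

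A convergent region holds the 3' untranslated ends and the terminators of its flanking genes and, by its construction, no promoter of either of them. Cleavage and polyadenylation factors cut the nascent transcript behind each gene, and RNA polymerase II is released further downstream. In yeast, cohesin, the ring that holds sister chromatids together, is known to collect between convergent genes, and some replication origins and centromeres also lie there.

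The study mapped chromatin-bound proteins by ChIP-exo, in which an exonuclease trims immunoprecipitated DNA up to the crosslinked protein, so that each peak is a single position. Yeast strains, most of them with a TAP tag on 1 protein, were grown in YPD at 25 °C and crosslinked with 1.0% formaldehyde. The analysis covered the 1115 libraries made without heat shock, of which 1035 used the TAP tag, 40 an HA tag and 40 an antibody to the protein itself. The libraries stood for 716 targets and 360480 peaks, and 15082 of the peaks, or 4.18%, lay in convergent regions. No untagged control library had a peak list here, so no background level was measured in the same way.

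The peak lists held 1 to 7062 peaks, with a median of 79, and read depth is unknown from them. Shares and densities were therefore computed only for the 794 libraries with at least 20 peaks, which represent 464 targets: 156 targets with 1 such library, 287 with 2 and 21 with more. Targets were the units of the main tests on shares and densities, since libraries of a target measure the same protein. More than 1 kind of tag or antibody was used in 21 of the 464. The block alternatives given at the end instead took single libraries, or sums of libraries, as units. Targets of a class can be subunits of the same complex with peaks in the same places, so they are not fully independent. The class tests treat them as independent, and their p values may be too small. Nothing in the labels says that libraries of a target came from separate cultures, so the spread between them may be technical. Exact binomial 95% intervals given for single libraries cover counting error only.

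Many convergent regions were empty. A peak of any target was found in 751 convergent regions, or 53.1%, where 84.4% of the regions of all 3 kinds had one. Peaks of at least 20 targets were found in 149 convergent regions, or 10.5%, where the share over all 3 kinds was 24.2%. The median number of targets was 1 in convergent regions, 11 in tandem regions and 14 in divergent regions. The 663 convergent regions without a peak had a median length of 153 bp, against 291 bp for those with one.

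The gap to the other kinds of region was present at every length. Among regions of 50 to 150 bp, 83.4% of convergent regions had no peak, against 40.5% of tandem and 13.3% of divergent regions. Above 250 and up to 400 bp the empty share was 28.3% in convergent, 4.91% in tandem and 1.18% in divergent regions. Above 700 and up to 1500 bp it was 9.76% in convergent, 3.22% in tandem and 1.20% in divergent regions, so that 8 of the 82 longest convergent regions were empty. At the lower limit of the rule, 2 of 26 convergent regions of 50 to 60 bp and 2 of 13 gaps of 40 to 49 bp had a peak. At the upper limit the median was 13 targets over 11 convergent regions of 1300 to 1500 bp and 20 targets over 9 gaps of more than 1500 and up to 2000 bp with no tRNA gene near.

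**Figure D1:**
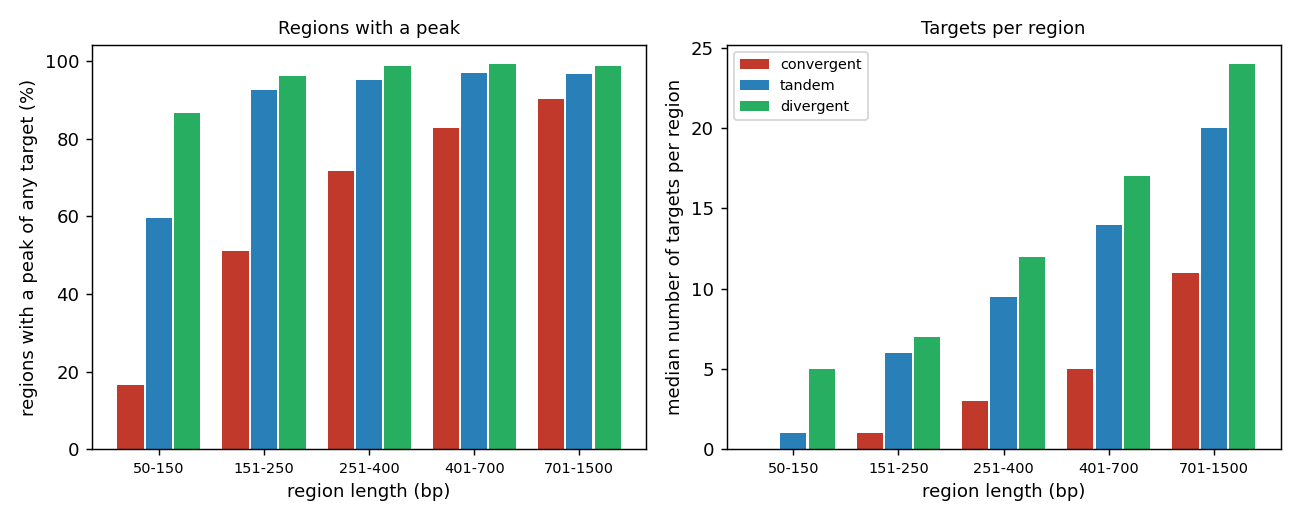
Regions with a peak of any target (left, % of regions) and median number of targets per region (right), by region length in bp, for convergent (red), tandem (blue) and divergent (green) regions. Convergent regions are lowest in every length bin, with 16.6% of the shortest and 90.2% of the longest holding a peak, and their median is 0 targets in the shortest bin.

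Over all 464 targets, peaks were less dense in convergent than in tandem regions. The mean log2 ratio of peak density was -1.0 ± 1.55 (SD), with 138 targets (29.7%) denser in convergent regions and 326 denser in tandem ones (sign-flip permutation test over targets, p = 1e-05, the smallest that 100000 resamples can give). Its size rested on a few crowded places: it was -0.21 (permutation p = 0.0321) without regions with peaks of more than 100 targets and -0.48 (permutation p = 1e-05) without regions with peaks of at least 3 kinetochore proteins, which include the tandem CUP1 regions with peaks of 536 and 540 targets. Against divergent regions the mean log2 ratio was -0.01 ± 2.49, with 233 targets higher and 231 lower (permutation p = 0.921). The 233 include 41 targets with no peak in either kind of region, whose ratio comes from the 0.5 peak added alone, and without such libraries the mean was -0.07 over 423 targets (permutation p = 0.558), an alternative chosen after seeing the data. No direction could be given against divergent regions: the mean was 0.23 with lists of at least 5 peaks (permutation p = 0.0062) but -0.34 without replicate 1 (permutation p = 0.0202), -0.25 with regions of 100 to 1000 bp (permutation p = 0.0356), -0.36 without regions with another feature or near a chromosome end (permutation p = 0.00441), -0.31 without regions of more than 100 targets (permutation p = 0.0114) and -0.23 with an added peak count scaled to region length (permutation p = 0.0314). Against coding sequence it was 0.50 ± 1.66, with 285 higher and 179 lower (permutation p = 1e-05). This last difference did not pass when the 0.5 peak added to each count was scaled to the length of the region (0.11, permutation p = 0.132), an alternative chosen after seeing the data. It also did not pass without the 8 convergent regions that had peaks of more than 100 targets (-0.06, permutation p = 0.495).

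The share of peaks in convergent regions differed for some functional classes and not for most. Of 29 functional classes with at least 3 targets, 6 (20.7%) had a larger share of their peaks in convergent regions than all other targets and 1 (3.45%) a smaller one (permutation test over targets, Benjamini-Hochberg adjusted over the 29 classes). The 6 were kinetochore proteins, 3' end processing and termination factors, the origin recognition complex and MCM helicase (ORC and MCM), condensin, cohesin with its loader, and RNA polymerase II. The 1 with a smaller share was the class of sequence-specific factors other than the general regulatory factors, at 2.18 ± 1.64% over 90 targets, against 3.81% for all other targets (adjusted permutation p = 0.0185). Over all 464 targets, 129 (27.8%) had a share above the 3.35% of the genome that convergent regions cover.

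**Figure D2:**
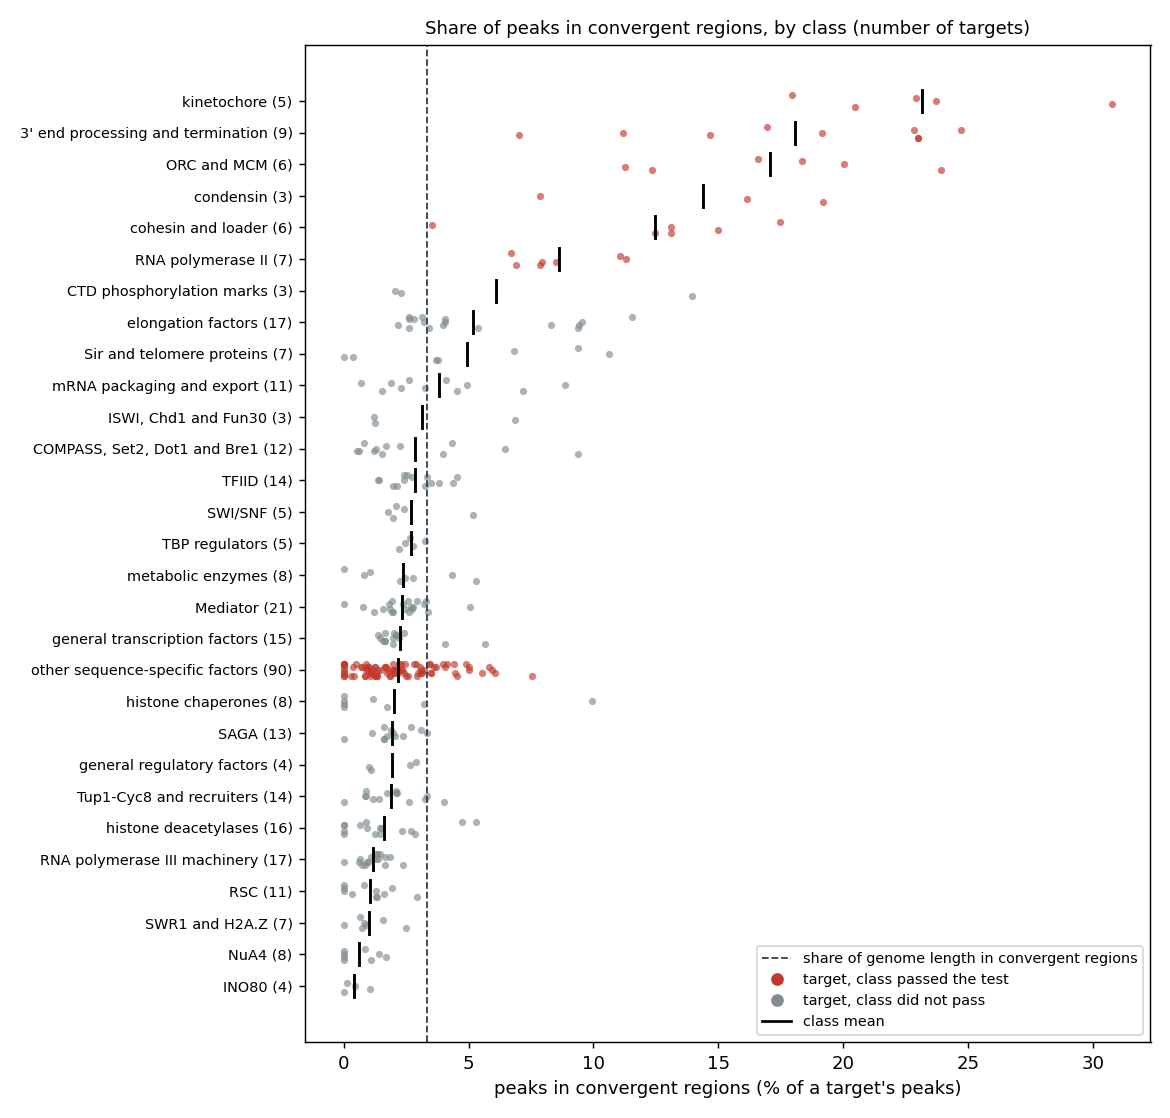
Share of a target's peaks that lie in convergent regions (x axis, % of peaks), 1 point per target and 1 row per class, with the number of targets in parentheses. Black bars are class means, the dashed line is the share of the genome in convergent regions (3.35%), and red points mark the 7 classes that passed the test. The 6 classes at the top have means from 8.62% to 23.2%.

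The factors that cut, polyadenylate and release transcripts were the largest of these groups by peak number, with 2631 peaks in convergent regions. Their mean share was 18.1 ± 6.11% (SD, 9 targets), against 3.21% for all other targets, a difference of 14.9 percentage points (adjusted permutation p = 0.000145), and 9 of 9 were above the mean of the others. Their peaks were 5.40 ± 1.83 times as dense in convergent regions as a uniform spread over the genome would give, 3.45 ± 1.07 times in tandem regions, 0.447 ± 0.387 times in divergent regions and 0.511 ± 0.177 times in coding sequence. The convergent to tandem ratio was 0.56 ± 0.41 on the log2 scale, higher in 8 of 9 targets (exact sign-flip permutation test, adjusted p = 0.0309). It did not pass without replicate 1 (0.48, adjusted exact permutation p = 0.178) or with lists of at least 5 peaks (0.34, adjusted exact permutation p = 0.259). Convergent regions hold 2 gene ends each and tandem regions 1. Counting only the 150 bp behind each gene end, in regions over 300 bp of both kinds, the ratio was 1.01 (exact permutation test, adjusted p = 0.0138).

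Within the group, the subunits that cleave and polyadenylate had the largest shares. Ysh1, the endonuclease that cuts the transcript, had 283 of 1437 peaks in convergent regions in the first library and 173 of 581 in the second, which is 19.7% (95% interval 17.7 to 21.8) and 29.8% (26.1 to 33.7). Rna14, a subunit of cleavage factor IA, had 353 of 1911 and 104 of 378, or 18.5% and 27.5%. Cft1, a subunit of the cleavage and polyadenylation factor, had 187 of 768 and 21 of 97, or 24.3% and 21.6%. In each of the 3 proteins both libraries lay far above the 3.21% of other targets, and the shorter list was not always the higher.

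Pcf11, which binds the polymerase tail, had 364 of 1708 and 18 of 74 peaks there, or 21.3% and 24.3%. Pap1, the poly(A) polymerase, had 36 of 143 and 154 of 1172, or 25.2% and 13.1%. Ref2, a subunit that acts in snoRNA termination as well, had 312 of 1759 and 213 of 1315, or 17.7% and 16.2%. These also stood above other targets in both libraries, with Pap1 showing the widest gap between its libraries.

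The proteins that terminate short non-coding transcripts were lower. Sen1, the helicase of that pathway, had 85 of 1327 and 16 of 100 peaks in convergent regions, or 6.41% and 16%. Nrd1, its RNA-binding partner, had 96 of 2110 and 14 of 147, or 4.55% and 9.52%, the lowest mean of the group at 7.04%. Rtt103, which binds the polymerase tail at gene ends, had 201 of 762 in the first library but 1 of 34 in the second, or 26.4% and 2.94%. The second Rtt103 list was short and its interval ran from 0.0744 to 15.3%; it was also why Rtt103 was the 1 member with a mean density ratio below 0 (-0.38).

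By region, at least 1 of these factors had a peak in 502 convergent regions, 35.5%, where 31.8% of all regions had one. At least 3 had a peak in 280, or 19.8%, against 16.1% of all regions, 21.6% of tandem regions and 1.87% of divergent regions. In 38 convergent regions at least 9 of the 10 factors with a list had a peak, and these regions held between 24 and 161 targets with a median of 41.5. Among the 280 regions, 141 (50.4%) had peaks of these factors nearer to each of the 2 gene ends, and 45 (16.1%) had at least 3 factors nearer to each end. In the other regions the peaks of these factors lay on 1 side of the middle.

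RNA polymerase II and the factors that travel with it were also dense. The 7 polymerase subunits had 8.62 ± 1.86% of their peaks in convergent regions, against 3.42% for all other targets (adjusted permutation p = 0.0471), and ranged from 6.71% for Rpb7 to 11.3% for Rpb3. Rpb3 had 279 of 2362 and 272 of 2512 peaks there, Rpb4 had 135 of 1277 and 278 of 2411, and Rpo21, the largest subunit, had 98 of 1132 and 65 of 776. These 6 libraries lay between 8.38% and 11.8%, and the lowest library of the class, of Rpb7 at 5.11%, was also above the mean of other targets. The call held under 11 of 15 alternatives. It was lost with TAP-tag libraries only (difference 4.83 percentage points, adjusted permutation p = 0.0897), without replicate 1 (4.55, adjusted permutation p = 0.119), without regions with another feature or near a chromosome end (4.27, adjusted permutation p = 0.0852) and with only the higher-scored peaks of each library (6.08, adjusted permutation p = 0.061). The density ratio to tandem regions was 0.76 ± 0.22 on the log2 scale, higher in 7 of 7 subunits (exact sign-flip permutation test, adjusted p = 0.0349).

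The phosphorylated forms of the polymerase tail differed among themselves. The Ser2 form, which marks elongating polymerase far into a gene, had 129 of 963 and 186 of 1283 peaks in convergent regions, or 13.4% and 14.5%. The Ser5 form, which marks polymerase near the start, had 26 of 1272 and 37 of 1474, or 2.04% and 2.51%. The Ser7 form had 19 of 857 and 20 of 1060, or 2.22% and 1.89%. The Ser2 libraries did not overlap with those of the other 2 marks, whose intervals reached at most 3.44%. In divergent regions the order was turned round, with 1 and 2 peaks for Ser2, 215 and 262 for Ser5 and 251 and 287 for Ser7. With 2 libraries per mark and 1 antibody each, no test between the marks was made.

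Among 17 elongation factors the mean share was 5.19 ± 3.11%, against 3.43% for all other targets, and did not pass (adjusted permutation p = 0.252). The members fell into a high and a low set. Spt4 had 11.6%, its partner Spt5 9.38%, the histone chaperone Spt6 8.31%, Iws1 9.56% and Elf1 9.41%. The Paf1 complex was lower, with 2.62% for Paf1, 2.62% for Leo1, 2.16% for Rtf1 and 3.15% for Ctr9. Against tandem regions, however, 16 of 17 were denser in convergent regions, with a mean log2 ratio of 0.82 ± 0.90 (permutation test, adjusted p = 0.00963), and the exception was Bye1 at -2.41, named after its value was seen. Spt2, a histone-binding protein of transcribed genes, stood apart from the other histone chaperones with 9.94 ± 0.494% (2 libraries), and the mean log2 ratio of the chaperones was -1.05.

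The replication origin proteins also had a large share of their peaks in these regions. ORC marks the sites where replication can start and loads the MCM helicase. The 6 tested proteins had 17.1 ± 4.77% of their peaks in convergent regions, against 3.32% for all other targets (adjusted permutation p = 0.000193), with 6 of 6 above the mean of the others. Their density was 5.11 ± 1.43 times the uniform level in convergent regions, 2.77 ± 0.692 times in tandem, 1.41 ± 0.393 times in divergent regions and 0.273 ± 0.159 times in coding sequence. The ratio to tandem regions was 0.89 ± 0.53 on the log2 scale, higher in 5 of 6, and did not pass (exact sign-flip permutation test, adjusted p = 0.0863). The 1 member below 0 was Orc1, at -0.11, which also had the shortest lists.

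Cdc46, a subunit of the MCM helicase, had 95 of 351 and 114 of 548 peaks in convergent regions, or 27.1% and 20.8%. Orc2 had 59 of 286 and 41 of 211, or 20.6% and 19.4%. Orc4 had 76 of 320 and 57 of 439, or 23.8% and 13%. Both libraries of each protein were above other targets, while Orc6 had one library near them, with 51 of 257 in the first and 16 of 331 in the second, or 19.8% and 4.83%. The second Orc6 list had 235 peaks in coding sequence, against 24 in the first.

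At least 3 of these proteins had a peak in 60 convergent regions, 4.24%, against 2.88% of all regions, 2.81% of tandem regions and 1.57% of divergent regions. In 35 convergent regions at least 5 of them had a peak, and in 11 at least 6 of the 7 with a list did. EKI1/KGD2 (chrIV:753236-753674, 439 bp) had peaks of 6 targets in all, and the 6 were Orc1, Orc2, Orc4, Orc5, Orc6 and Cdc46. All 12 of their libraries had a peak there, and apart from 1 further Orc4 peak at 405 bp they lay between 46 and 99 bp from the stop codon of EKI1.

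In MRPL37/SDH8 (chrII:741617-742159, 543 bp) the same 6 proteins had 12 peaks in 12 libraries between 126 and 165 bp from the stop codon of MRPL37, and the only other target was a 3' end factor. VMS1/TPI1 (chrIV:555153-555725, 573 bp) lies beside TPI1, which encodes the glycolytic enzyme triosephosphate isomerase, and held peaks of 37 targets. There the 12 origin peaks lay between 220 and 244 bp from the stop codon of VMS1, while 17 peaks of 9 cleavage and termination factors lay between 350 and 510 bp, on the side of TPI1. Within the region the origin peaks and those of the 3' end factors therefore did not overlap. PAM16/GSM1 also had origin peaks, of 5 proteins between 1044 and 1129 bp from the stop codon of PAM16.

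Cohesin and its loader had 12.4 ± 4.73% of their peaks in convergent regions over 6 targets, against 3.38% for all other targets (adjusted permutation p = 0.00449), with 6 of 6 above the mean of the others. The convergent to tandem ratio was the largest of the 29 classes, at 1.32 ± 0.73 on the log2 scale, and was higher in 6 of 6 targets. It did not pass after adjustment (exact sign-flip permutation test, adjusted p = 0.0604, with 0.0312 the smallest unadjusted p that 6 targets allow). Peaks were 3.72 ± 1.41 times as dense as uniform in convergent regions, 1.58 ± 1.11 times in tandem regions and 0.157 ± 0.221 times in divergent ones.

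Smc1, an arm of the cohesin ring, had 22 of 131 and 6 of 33 peaks in convergent regions, or 16.8% and 18.2%. Smc3, the other arm, had 84 of 734 and 31 of 210, or 11.4% and 14.8%. Mcd1, the subunit that closes the ring, had 15 of 100 in its 1 library. The ring subunits Smc1, Smc3 and Mcd1 lay between 11.4% and 18.2% in every library, and none of their intervals reached the mean of other targets.

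Irr1, which binds the closed ring, had 3 of 31 and 9 of 59, or 9.68% and 15.3%. The loader subunit Scc2 had 5 of 42 and 7 of 49, or 11.9% and 14.3%, and its partner Scc4 had 5 of 141, or 3.55%. Scc4 was the lowest member. Its interval of 1.16 to 8.08% included the mean of other targets, as did that of the first Irr1 library, 2.04 to 25.8%.

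At least 1 of the 6 had a peak in 73 convergent regions, 5.16%, against 2.6% of all regions, 2.19% of tandem regions and 0.674% of divergent regions. Convergent regions were thus 52.9% of all regions with such a peak. Where they lay along the chromosome differed, as measured from the 16 gaps, 1 on each of 16 chromosomes, in which all 5 kinetochore proteins had peaks. Leaving aside the 5 of these gaps that are convergent regions themselves, a cohesin or loader peak was present in 19 of 44 convergent regions (43.2%) up to 10 kb from such a gap, in 11 of 62 (17.7%) over 10 to 25 kb away, in 7 of 89 (7.87%) over 25 to 50 kb away and in 31 of 1214 (2.55%) further away. Peaks of at least 3 cleavage and termination factors were present in 13 of 44, 13 of 62, 16 of 89 and 235 of 1214 regions at the same distances, between 18% and 29.5%. These distance classes were chosen after the peaks had been seen.

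Library by library, the first Smc1 library had 9 of its 22 convergent peaks in the 5 kinetochore regions, 12 more within 10 kb and 0 beyond 25 kb. The first Smc3 library, with the longest list of the class, had 11 of 84 in the kinetochore regions, 19 within 10 kb and 39 beyond 25 kb. The second Smc3 library had 11 of 31 in the kinetochore regions, 16 within 10 kb and 2 beyond 25 kb. In the first Smc1 and second Smc3 libraries most convergent peaks therefore lay within 10 kb of a kinetochore gap, while 39 of the peaks of the class beyond 25 kb came from the single long Smc3 list.

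Both Scc2 libraries had their convergent peaks nearly all in the kinetochore regions themselves, 5 of 5 and 6 of 7. Without those 5 regions the difference in share of the whole class was 4.86 percentage points and did not pass (adjusted permutation p = 0.0559), an alternative chosen after seeing the data. It was the single alternative of 15 under which the call for this class was lost.

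At least 4 of the 6 had a peak in 9 convergent regions, of which 4 were kinetochore regions and the other 5 lay 3.85 to 7.20 kb from a kinetochore gap. MPP10/MRX12 (chrX:440647-440993, 347 bp) had 7 peaks of Smc1, Smc3, Irr1 and Mcd1, in all 7 libraries of these proteins, between 116 and 249 bp from the stop codon of MPP10, the gene of a ribosome assembly factor. Its other 6 targets were polymerase, elongation and mRNA-packaging proteins, and it had no peak of a 3' end factor. In SWD1/RFA1 (chrI:156286-156753) and PEX31/TFG2 (chrVII:504327-504656), both named after their values were seen, 4 cohesin or loader proteins were the only targets with a peak.

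Kinetochore proteins, which tie the centromere to the spindle, had the largest mean share, 23.2 ± 4.81% over 5 targets, against 3.28% for all other targets (adjusted permutation p = 0.000145). Cse4, the centromeric histone, had 9 of 44 peaks in convergent regions. Mif2, which binds that nucleosome, had 11 of 35 and 16 of 100, or 31.4% and 16%. Nkp1 had 10 of 47 and 13 of 53, Nkp2 21 of 132 and 10 of 50, and Mcm16 12 of 39 in its 1 library of at least 20 peaks. All were high, from 15.9% to 31.4%, and the lists were short. Density was 6.92 ± 1.44 times uniform in convergent regions and 4.76 ± 0.141 times in tandem regions. The log2 ratio of the 2 was 0.53 ± 0.27, higher in 5 of 5, and did not pass (exact sign-flip permutation test, adjusted p = 0.0863).

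Of the 102 peaks of the class in convergent regions, 100 lay in 5 regions, each of which had peaks of all 5 proteins. The 5 regions were RMD1/NTH1 on chromosome IV, YIL001W/SGN1 on IX, DNM1/YLR001C on XII, YPT7/CDC5 on XIII and DOM34/CIT1 on XIV. Their flanking genes carry the number 001 of the left and the right arm in their systematic names, which count outward from the centromere (for example YML001W and YMR001C). By at least 3 of the proteins, 0.354% of convergent regions were marked, where 0.32% of all regions were. Without the 5 regions the difference in share was -2.59 percentage points and did not pass (adjusted permutation p = 0.248). The 5 regions were picked by these same peaks and hold 100 of the 102, so losing the call was set in advance.

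In YPT7/CDC5 (chrXIII:267801-269018, 1218 bp) 19 kinetochore peaks of 9 libraries lay between 236 and 366 bp from the stop codon of YPT7. Each of the 5 proteins had its first peak within 236 to 239 bp and its last within 364 to 366 bp. In DNM1/YLR001C (chrXII:150164-151388) the 25 kinetochore peaks were spread from 379 to 954 bp, and in DOM34/CIT1 (chrXIV:628617-629621) the 23 peaks from 22 to 459 bp.

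Condensin, the ring that compacts chromosomes, followed the same regions. Its 3 tested subunits had 14.4 ± 5.86% of their peaks in convergent regions, against 3.42% for all other targets (adjusted permutation p = 0.0189). Density was 4.30 ± 1.75 times uniform there and 3.17 ± 0.946 times in tandem regions. The log2 ratio was 0.37 ± 0.30 and did not pass (exact sign-flip permutation test, adjusted p = 0.279). At least 3 subunits had a peak in 0.354% of convergent regions, 0.469% of tandem regions and 0.358% of all regions. Brn1 had 14 of 78 and 10 of 49 peaks there, Smc4 10 of 61 and 7 of 44, and Ycs4 8 of 63 and 4 of 132. The second Ycs4 library was the lowest at 3.03%, while the other 5 lay between 12.7% and 20.4%. Of the 53 condensin peaks in convergent regions 47 lay in the 5 kinetochore regions, and without those regions the difference was -1.23 percentage points and did not pass (adjusted permutation p = 0.729). With most of its convergent peaks left out, that loss says only where the peaks lay. The call held under 10 of 15 alternatives and was also lost without replicate 1 (9.43, adjusted permutation p = 0.0694), with regions of 100 to 1000 bp (3.16, adjusted permutation p = 0.239), without regions of more than 100 targets (5.72, adjusted permutation p = 0.126) and as a share of intergenic peaks alone (13, adjusted permutation p = 0.156).

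Outside the 5 kinetochore regions the highest condensin counts were in AHP1/CCW12 (chrXII:369312-369696), where 3 subunits had 1 peak each. Besides the kinetochore proteins, the targets with a peak in all 5 kinetochore regions were the condensin subunits Brn1 and Smc4, the cohesin proteins Smc3 and Scc2, and Cln1, Fzf1, Spt21 and Yox1. Cln1, a G1 cyclin, had 7 of 33 and 8 of 24 peaks in convergent regions, the second highest mean of all targets at 27.3%, and 15 of those 15 peaks lay in the 5 regions.

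Proteins that assemble at promoters were less dense in convergent than in tandem regions. Against tandem regions, 3 classes (10.3% of 29) were denser, namely the 3' end factors, RNA polymerase II and the elongation factors, and 10 (34.5%) were less dense. NuA4, an acetyltransferase that marks promoters, had a log2 ratio of -2.89 ± 0.78, lower in 8 of 8 targets (exact sign-flip permutation test, adjusted p = 0.0227). The general transcription factors, which position the polymerase at the start, had -2.74 ± 0.56, lower in 15 of 15 (exact sign-flip permutation test, adjusted p = 0.00059). SWR1 and H2A.Z, which form the nucleosome next to the start, had -2.80 ± 1.38, lower in 7 of 7 (exact sign-flip permutation test, adjusted p = 0.0349).

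TFIID had a log2 ratio of -1.97 and SAGA of -1.84, the RSC remodeller -1.81, the Tup1-Cyc8 corepressor with its recruiters -1.76, the other sequence-specific factors -1.59, the histone deacetylases -1.51 and Mediator -1.34, and all 7 passed with adjusted permutation p values up to 0.00741. Every tested target of TFIID, SAGA, RSC and the Tup1-Cyc8 class was below 0. Among 21 Mediator subunits Med6, Nut2 and Ssn3 were above 0, and among 16 histone deacetylases Hst1, Set3 and Sif2 were. The 4 general regulatory factors Abf1, Rap1, Reb1 and Tbf1, which clear nucleosomes from promoters, averaged -2.57 ± 1.07, lower in 4 of 4, and with 4 targets the exact test could not go below 0.125.

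Against coding sequence the direction differed. The general transcription factors had a log2 ratio of convergent regions to coding sequence of 2.63 (exact permutation test, adjusted p = 0.000885), TFIID of 1.92 (adjusted exact permutation p = 0.00118) and the Tup1-Cyc8 class of 0.53 (adjusted exact permutation p = 0.0189), while SAGA at 0.23 and Mediator at 0.06 did not pass (adjusted permutation p = 0.219 and 0.76). The 0.5 peak added to each count raises these ratios, since coding sequence is far longer, and no scaled count was run for classes against coding sequence. TFIID peaks were 0.848 ± 0.299 times as dense as uniform in convergent regions, 3.57 ± 0.62 times in tandem regions, 5.73 ± 1.03 times in divergent regions and 0.288 ± 0.117 times in coding sequence. Peaks of the Tup1-Cyc8 class were 0.568 ± 0.338 times as dense as uniform in convergent regions and 0.478 ± 0.158 times in coding sequence. In share of peaks none of these 5 classes differed from all other targets, with adjusted permutation p from 0.355 for the Tup1-Cyc8 class to 0.737 for TFIID.

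**Figure D3:**
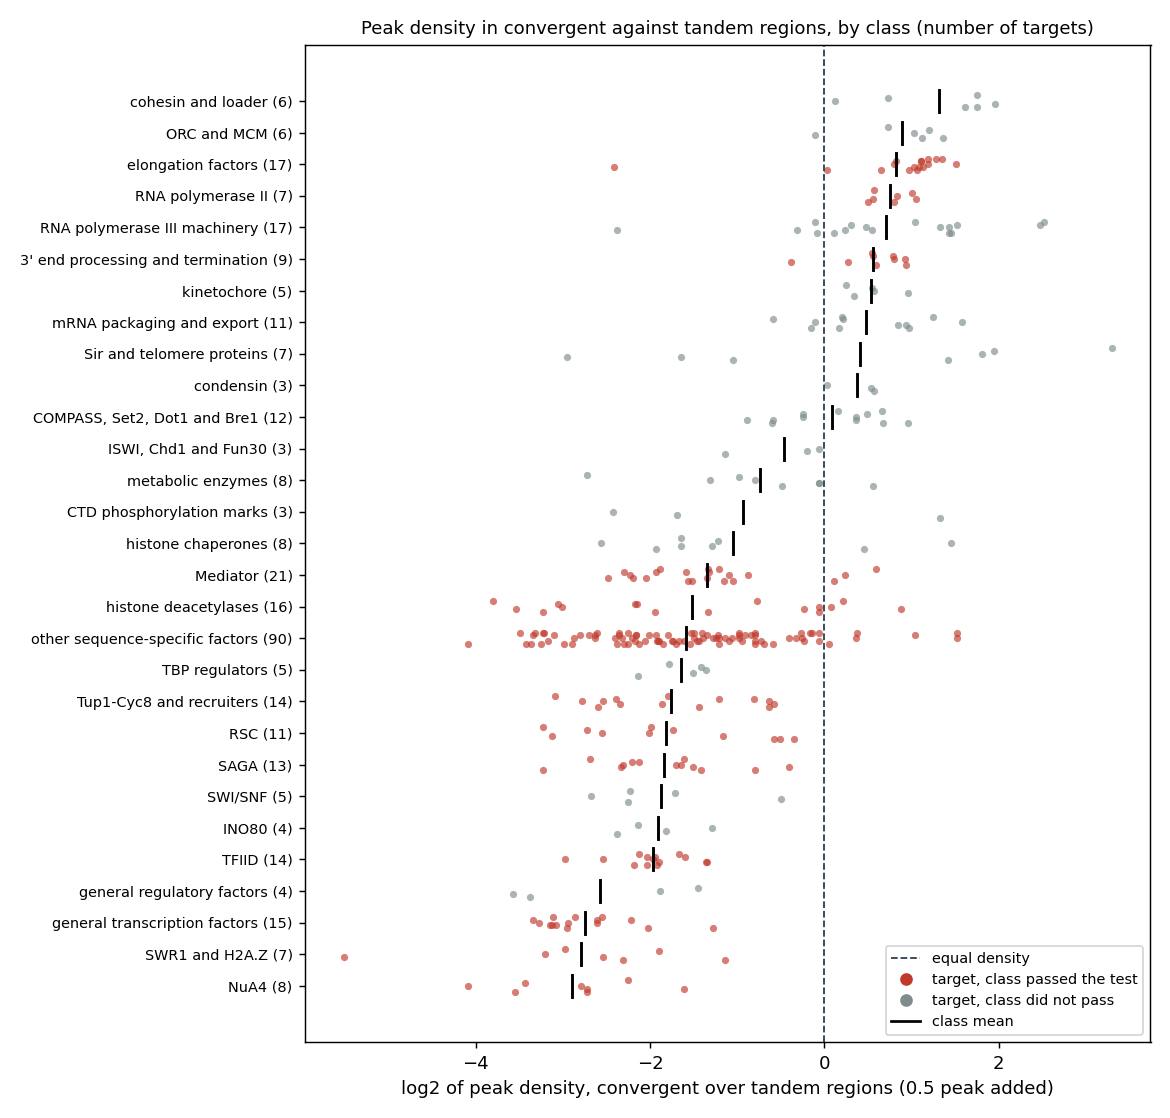
Log2 of the peak density in convergent over tandem regions (x axis, 0.5 peak added to each count), 1 point per target and 1 row per class, with class means as black bars and equal density as the dashed line. Red points mark the 13 classes that passed the test. Class means run from 1.32 for cohesin and its loader to -2.89 for NuA4.

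By region, at least 1 general transcription factor had a peak in 256 convergent regions, 18.1%, where 69.2% of all regions had one, and at least 3 did in 77, or 5.45%, where 55.2% of all regions had them. At least 1 target of SWR1 and H2A.Z had a peak in 54, or 3.82%, where 41.7% of all regions had one. At least 3 of that class did in 1, or 0.0707%, where 2.28% of all regions had them. At least 1 general regulatory factor had a peak in 46, or 3.25%, where 25.5% of all regions had one. Among single targets, Bdf1, a bromodomain protein of the SWR1 and H2A.Z class, had 0 of 872 and 0 of 137 peaks in convergent regions, against 169 and 25 in tandem ones, and the upper limits of its intervals were 0.422% and 2.66%. Rap1 had 2 of 323, 2 of 373 and 26 of 1404, and Abf1 4 of 499 and 10 of 708. The TFIIH helicase Ssl2 was the highest general transcription factor, with 262 of 4092 and 195 of 3965, or 6.40% and 4.92%, while Tfb4 of the same complex had 59 of 4533 and 63 of 4298, or 1.30% and 1.47%.

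The few convergent regions with a full set of initiation factors mostly contained another gene. At least 15 of the 17 general transcription factors with a list had a peak in 16 convergent regions, and 12 of the 16 held another annotated feature, although only 17 of the 1414 regions do and 14 of these features are snoRNA or snRNA genes. YHR140W/RPL42B (chrVIII:381292-381989) holds the snoRNA gene SNR32, PAM16/GSM1 (chrX:227777-229024) SNR37, RPL36A/CMC4 (chrXIII:651911-652593) SNR11, RPS26B/PMD1 (chrV:424312-425187) SNR4 and LAM1/LIN1 (chrVIII:410790-411383) SNR71. In these 5 regions 14, 14, 14, 11 and 9 of the 14 TFIID targets had a peak. In PAM16/GSM1 the TFIID peaks had a median of 779 bp from the stop codon of PAM16 and the general transcription factors 745.5 bp, against 213 bp for the 3' end factors. When regions with another annotated feature or near a chromosome end were left out, the density ratio of all targets to coding sequence was 0.08 and did not pass (permutation p = 0.293).

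Around the gene ends, the density of the 3' end factors was highest in the bin of 150 to 200 bp behind the stop codon, which only the longer regions reach. Over all convergent regions the median distance of their peaks from the nearer stop codon was 120 ± 10.6 bp (SD, 9 targets). Per bp of sequence nearer to that end, their density was 4.60 ± 1.84 times uniform in the last 50 bp of the gene, 8.19 ± 3.47 times between 100 and 150 bp behind the stop codon, 16 ± 6.52 times between 150 and 200 bp, 10.1 ± 5.91 times between 200 and 250 bp and 3.81 ± 1.85 times between 250 and 300 bp. RNA polymerase II had its highest value in the same bin, 5.15 ± 0.939 times between 150 and 200 bp, against 1.55 ± 0.496 times at 250 to 300 bp inside the gene. The elongation factors stayed between 1.10 and 2.40 times in every bin, with 1.87 ± 0.683 times at 250 to 300 bp inside the gene and 2.17 ± 1.76 times at 150 to 200 bp behind it.

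Cohesin and its loader were low at the stop codon, with 1.82 ± 1.84 times uniform in the first 50 bp behind it. Inside the gene they had 5.59 ± 3.07 times at 100 to 150 bp. Behind it they had 2.54 ± 2.27 times at 100 to 150 bp, 10.2 ± 6.76 times at 200 to 250 bp and 9.96 ± 8.26 times at 350 to 400 bp. Of the 187 peaks of the class in convergent regions, 53 lay in the 5 kinetochore regions, which the profile includes. The kinetochore proteins themselves had 11.3 ± 4.09 times at 200 to 250 bp behind the stop codon and 60.2 ± 18 times at 350 to 400 bp, their highest bin. ORC and MCM were nearly absent inside the genes, with 0.147 ± 0.192 times at 250 to 300 bp inside, and stood at 9.57 ± 4.45 times at 150 to 200 bp behind the stop codon and 8.85 ± 6.41 times at 300 to 350 bp. General transcription factors were at most 0.329 times up to 150 bp behind the stop codon and reached 5.57 ± 3.53 times at 300 to 350 bp. Most regions are too short to reach the further bins. The sequence available was 97.6% of a full bin at 0 to 50 bp behind the stop codon and 44% at 100 to 150 bp. It was 23.5% at 150 to 200 bp, 13.7% at 200 to 250 bp, 9.61% at 250 to 300 bp and 5.19% at 350 to 400 bp.

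**Figure D4:**
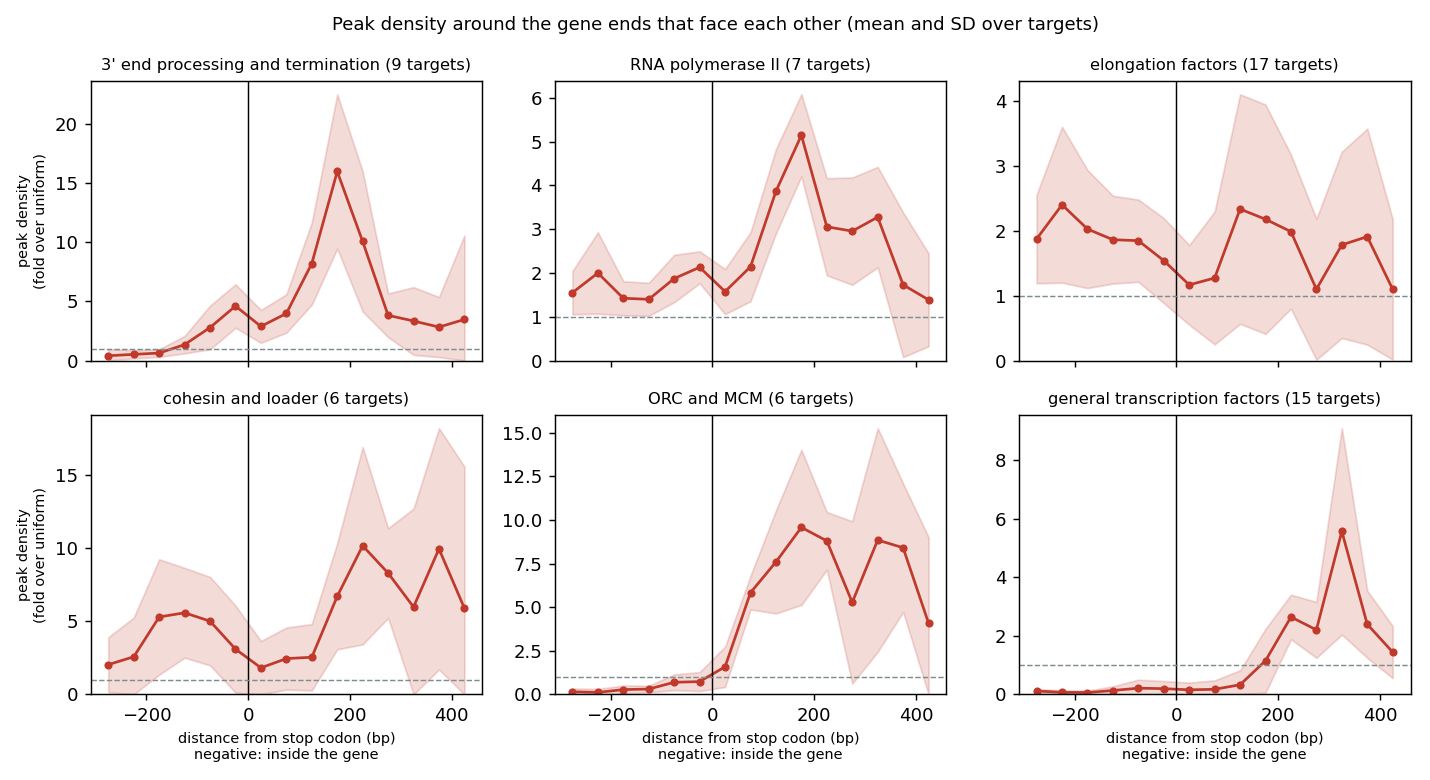
Peak density (y axis, fold over a uniform spread over the genome) against distance from the stop codon in bp (x axis, negative inside the gene) over the 2 gene ends of each convergent region, for 6 classes. Points are means over targets in 50 bp bins and bands are 1 SD. The 3' end factors reach 16 times uniform at 150 to 200 bp, and the general transcription factors stay low until about 200 bp.

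As a relative position, with 0 at a stop codon and 0.5 at the middle of the region, the median over 212 targets with at least 10 peaks in convergent regions was 0.290. Of 22 classes, 2 (9.09%) differed. TFIID lay nearer the middle, at 0.336 ± 0.0425 against 0.276 for all other targets (12 targets, adjusted permutation p = 0.00704), and the other sequence-specific factors nearer the ends, at 0.249 ± 0.0542 against 0.284 (25 targets, adjusted permutation p = 0.0257). Neither held without regions that contain another annotated feature or lie near a chromosome end, where 0 of 18 classes passed, and TFIID then had 3 targets and a difference of -0.06 (adjusted permutation p = 0.34). No class passed without replicate 1 or without the regions with peaks of more than 100 targets either.

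Regions beside some gene families differed from the others in their counts. Of the 68 convergent regions beside a ribosomal protein gene, 57 (83.8%) had peaks of at least 3 cleavage and termination factors, against 223 of the 1346 others (16.6%). At least 3 polymerase subunits were present in 67 of the 68 (98.5%), against 11.2% of the others and 12.2% of all regions of the 3 kinds, and the median number of targets was 29, against 1. Of the 6 convergent regions beside a core histone gene, 6 had at least 3 polymerase subunits, against 15.1% of the 1408 others. At least 3 cleavage and termination factors were present in 5 of the 6, against 19.5%, and the median number of targets was 43, against 1. Of the 10 beside a glycolysis or fermentation gene, 7 had at least 3 of the cleavage and termination factors, against 19.4% of the 1404 others. Their median was 23.5 targets, against 1. Region length was not matched in these comparisons. A cohesin or loader peak was present in 12 of the 68 regions (17.6%) beside a ribosomal protein gene, against 4.53% of the others. These lists were chosen after seeing the data, and no expression level was measured here.

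Among histone genes, HHT1/IPP1 (chrII:256742-257111), behind the gene of histone H3, had peaks of 52 targets, with 9 cleavage and termination factors, 7 polymerase subunits and 13 elongation factors. HHF2/KTR5 (chrXIV:577039-577204), behind the gene of histone H4 and 166 bp long, had 24 targets with 11 elongation factors, 3 polymerase subunits and 0 cleavage and termination factors. Both regions were named after their values were seen.

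Peaks of transcription-related classes shared regions. Of the 280 convergent regions with at least 3 cleavage and termination factors, 165 (58.9%) also had at least 3 polymerase subunits, and these were 75.7% of the 218 regions with such polymerase peaks, where 15.4% of all convergent regions had them. Of the 60 regions with at least 3 origin proteins, 20 (33.3%) had at least 3 cleavage and termination factors, 10 (16.7%) at least 3 polymerase subunits and 0 kinetochore peaks of 3 targets. Of the 22 regions with at least 2 cohesin or loader proteins, 13 (59.1%) had at least 3 cleavage and termination factors, 6 (27.3%) at least 3 polymerase subunits and 5 (22.7%) were the kinetochore regions. Over all convergent regions, 19.8% had at least 3 cleavage and termination factors and 15.4% at least 3 polymerase subunits. Kinetochore regions make up 0.354% of them. The 22 cohesin regions had a median length of 576 bp, against 226 bp for all convergent regions, and longer regions more often had a peak. Among the 5 kinetochore regions, 3 had at least 3 cleavage and termination factors.

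Single convergent regions drew very many targets to 1 place. YPT7/CDC5, beside the gene of the mitotic kinase Cdc5, had the most, with peaks of 178 targets from 217 libraries. Of these targets, 171 (96.1%) had a peak in 1 window of 100 bp, 227 to 326 bp from the stop codon of YPT7. They included 9 SAGA subunits, 8 histone deacetylases, 41 other sequence-specific factors and 8 metabolic enzymes, besides the kinetochore, cohesin and condensin proteins. Without replicate 1 the number was 74, and 39 targets had a peak there in at least 2 of their libraries. No untagged list was used here, so the background at this place was not measured.

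HIP1/TDH3 (chrVII:882232-882811, 580 bp), behind TDH3, which encodes an abundant glycolytic enzyme, had 161 targets, with 9 cleavage and termination factors, 7 polymerase subunits, 17 elongation factors and 10 mRNA packaging and export proteins. The 20 peaks of cleavage and termination factors lay between 321 and 505 bp from the stop codon of HIP1, nearer to TDH3. Without replicate 1 the number was 101, and 62 targets had a peak there in at least 2 libraries. AHP1/CCW12 (chrXII:369312-369696) had 96 targets, with 9 cleavage and termination factors, 7 polymerase subunits and 8 Mediator subunits within its 385 bp, with 51 targets without replicate 1 and 36 with a peak in at least 2 libraries.

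Other crowded regions differed in the classes they held. YGR035W-A/CAX4 (chrVII:557787-558148, 362 bp) had 102 targets, among them 19 of 24 Mediator subunits with 33 peaks between 34 and 68 bp from the stop codon of YGR035W-A, 9 SAGA subunits between 27 and 76 bp, 28 other sequence-specific factors and 0 cleavage and termination factors. YOL155W-A/HPF1 (chrXV:27219-28702), at 1484 bp the longest convergent region, had 96 targets with 15 general transcription factors, 14 Mediator subunits and 11 of the Tup1-Cyc8 class. CIC1/YHR052C-B (chrVIII:211979-212518), with 7 cleavage and termination factors, had 146 targets, of which 127 fell in 1 window of 100 bp. Without replicate 1 the number was 64, and 17 targets had a peak in at least 2 libraries. It borders the CUP1 repeats, whose copies share sequence, so the assignment of reads there is uncertain.

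**Figure D5:**
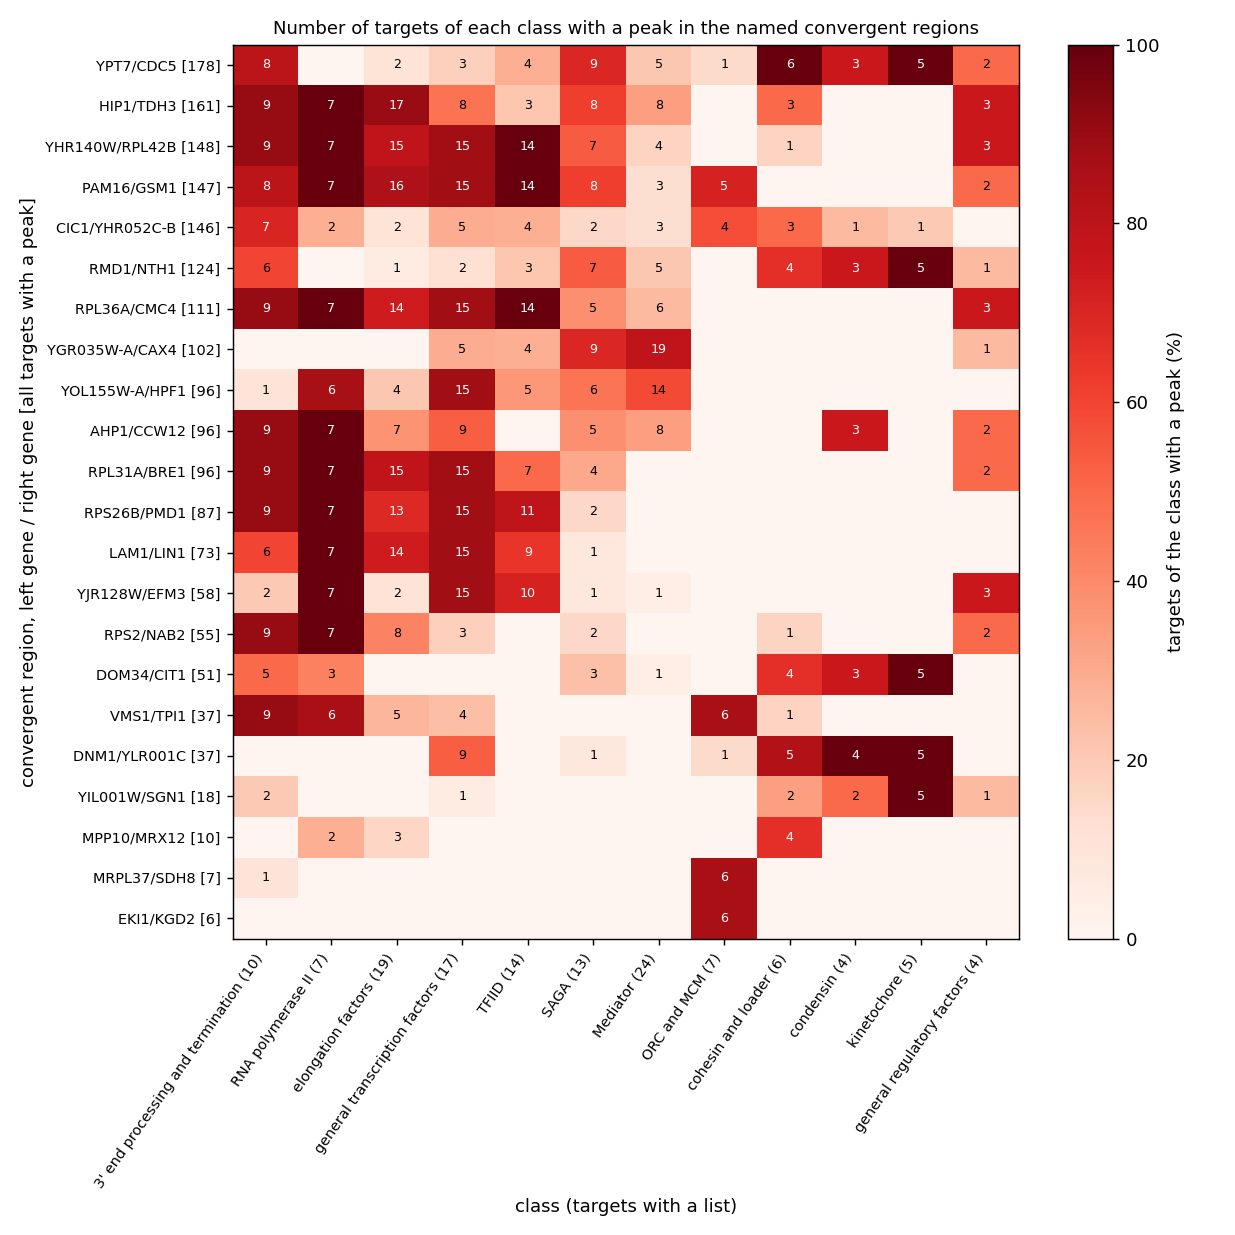
Number of targets of each class (columns, with the number of targets that have a peak list in parentheses) with a peak in the named convergent regions (rows, left gene / right gene, with the number of all targets in brackets). Colour gives the percent of the class. All 5 kinetochore proteins have a peak in YPT7/CDC5, RMD1/NTH1, DNM1/YLR001C, DOM34/CIT1 and YIL001W/SGN1, and origin proteins fill EKI1/KGD2, MRPL37/SDH8 and VMS1/TPI1. All 7 RNA polymerase II subunits have a peak in each row beside a ribosomal protein gene or with a snoRNA gene, while other transcription classes vary there.

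The overlap between libraries of the same target did not differ detectably between convergent and tandem regions. Over 79 groups of libraries with enough peaks, 81.9 ± 21.6% of the peaks of the shorter list had a peak of the other list within 100 bp in convergent regions and 83.2 ± 16.6% in tandem regions, a mean difference of -1.23 percentage points (sign-flip permutation test, p = 0.382). By class the overlap in convergent regions was 97.8 ± 2.63% over 8 groups of cleavage and termination factors, 80.9 ± 6.25% over 7 of RNA polymerase II, 83.8 ± 10.9% over 12 of elongation factors, 93.5 ± 12.5% over 15 of general transcription factors and 74.2 ± 35.2% over 5 of ORC and MCM. For cohesin it was 61.3% in the 1 group with enough peaks. Over the remaining classes it ran from 36.4% in 1 SWI/SNF group, against 87.3% in tandem regions, to 100 ± 0% over 3 kinetochore groups. Other sequence-specific factors had 51 ± 48.2% over 3 groups, and mRNA packaging and export proteins 56.5 ± 18.7% over 3. Groups needed at least 10 peaks of the shorter list in each kind of region, so classes with few convergent peaks are little represented.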

How the data were processed

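ChIP-exo peak lists were used as deposited. Each gives 1 bp positions under the name ChExMix, per the file contents. BWA, Picard and SAMtools were the authors' tools, per the submitters' processing notes, which name sacCer3; versions are not given in the sources used here. The score deposited with each peak runs from 66 to 1000, its definition is not given in the sources used here, and it only ranked peaks within a library. Genes came from the R64 annotation of RefSeq (6002 coding genes, coding coordinates), with strand read from the W or C of the systematic name. A target's value is the mean over its libraries of at least 20 peaks. Shares were tested by permutation over targets, and log2 density ratios (0.5 peak added) by sign-flip permutation, exact up to 16 targets and otherwise with 100000 resamples, with Benjamini-Hochberg adjustment at 0.05 over classes of at least 3 targets. The methods were tested on simulated data. Python 3.11.15, numpy 2.4.6, pandas 2.3.3 and scipy 1.17.1 were used.

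The regions, classes and lists were chosen with earlier results of these data known. Named targets are the 3 highest and the lowest of each class by share and the 15 highest overall. Named regions are the 10 with most targets and the top 3 for cohesin, condensin, origin, 3' end, general transcription and general regulatory factors. Further members of a class, the kinetochore regions and positions within regions were added after their values were seen. Of 380 pairs of lists of the same group, 0 were identical. Alternatives covered list size, antibody, replicates, region length, tRNA distance, crowded regions, scores, pseudocount and blocks. Sequences and motifs are not used here.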

Additional observations from a re-analysis of the deposited data

Results flagged for a closer look

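Peaks in convergent regions also appeared in lists that no comparison above uses. The 18 MNase-ChIP-seq lists of histones and histone marks had 30 of their 11999 peaks there (0.25%, with a median of 0.523% and a range of 0 to 7.69% over lists). The 22 ChIP-exo lists made with heat shock had 434 of 15742 peaks there (2.76%, with a median of 1.59% and a range of 0 to 7.11%). The list of the sample whose labels name 2 different targets had 29 of 1239 (2.34%). No control library was available to set a background for them, and none of these was tested.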

How the results depend on the processing

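The share calls for 3' end factors, ORC and MCM, and other sequence-specific factors held under all 15 alternatives run. These include the block alternatives, which permute single libraries instead of targets. The density of all targets against tandem regions stayed below 0 under all 14 (-0.48 without the kinetochore regions and -0.21 without regions of more than 100 targets). Among the 14, leaving out libraries with no peak in either kind could change nothing, since 0 of 794 libraries lacked a peak in both. That run and the block alternatives also count among the 20 density alternatives of each class. Against divergent regions the mean log2 ratio was 0.23 with lists of at least 5 peaks (permutation p = 0.0062), -0.25 with regions of 100 to 1000 bp, -0.36 without regions with another feature or near a chromosome end, -0.31 without regions of more than 100 targets and -0.23 with the scaled pseudocount, and -0.337 to 0.0308 leaving out each replicate number. Against coding sequence it was 0.0771, -0.0574 and 0.109 without regions with another feature or near an end, without those of more than 100 targets and with the scaled pseudocount. The number of classes that differed in share was 12 among intergenic peaks alone and 4 without the kinetochore regions (condensin -1.23, kinetochore -2.59). Those regions were picked by the peaks of the kinetochore class itself. The number that differed in density was 6 against coding sequence, where general transcription factors (2.63), TFIID (1.92), Tup1-Cyc8 (0.53), SAGA (0.23), other sequence-specific factors (0.19) and Mediator (0.0579) turned positive. Of 20 alternatives the density call kept its direction and side of the threshold in 15 for NuA4, 13 for SWR1 and H2A.Z, 16 for elongation factors and 17 each for 3' end factors and RNA polymerase II. For position the counts were 0 without other features or without crowded regions (TFIID -0.0554), 1 with the upper scores, 5 in bp (other sequence-specific factors 1.80 bp) and 0 to 2 leaving out each replicate number. The overlap difference was 0.0445 with at least 5 peaks. A peak in at least 2 libraries of a target was present in 444 convergent regions. In each of these the cause was not tested.

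With single libraries instead of targets as units, 22 density classes differed instead of 13. With single libraries permuted within replicate numbers, 8 share classes differed instead of 7. With blocks of library numbers, 6 density classes and 8 share classes did, the share test again with single libraries as units. Libraries of a target are not independent, so counts with libraries as units may be too high. The numbers pair no cultures. The 7 density calls lost under blocks of library numbers were those of 3' end factors, RNA polymerase II, elongation factors, NuA4, RSC, SWR1 and H2A.Z, and TFIID (adjusted exact permutation p from 0.0824 to 0.165). With 4 blocks for TFIID, 5 for RSC and 6 for NuA4, the smallest unadjusted p that these exact permutation tests can give is 0.125, 0.0625 and 0.0312. Short lists, unknown read depth and a missing untagged list limit every share given here.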

Other observations

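Some targets outside the classes that passed also had many peaks in convergent regions. Prp46, a splicing factor, had 16.6% of its peaks there as a mean of 2 libraries, with a log2 density of 1.58 against tandem regions, and Naf1, which assembles box H/ACA snoRNPs, had 13.3% with 1.13. The silencing proteins Sir2, Sir3 and Sir4 had 10.6 ± 3.83%, 6.83 ± 5.15% and 9.40 ± 3.03% (SD over 2 libraries each), while Yku80 had 0 of 31 peaks (upper 95% limit 11.2%). Hrb1, an mRNA export factor, had 25 of 539 and 74 of 1404 peaks there, or 4.64% and 5.27%, and was 1.58 denser on the log2 scale than in tandem regions. RNA polymerase III machinery, with tRNA genes left out by the rule, had 1.18 ± 0.549% of its peaks in convergent regions and a log2 ratio of 0.71 ± 1.17 to tandem regions, higher in 13 of 17 targets (permutation test, adjusted p = 0.0512). Prp46 and Naf1 were named after their values were seen.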
